A study of Mus musculus with 12 samples.

Results

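A T cell that meets its antigen needs a second, costimulatory signal to expand and to make cytokines. The 8 genes described here encode receptors that carry such signals: *Cd28*, *Icos*, *Tnfrsf9*, *Tnfrsf4*, *Tnfrsf18*, *Cd27*, *Cd226* and *Cd2*. They were taken by name, 8 of the 31053 genes counted, and followed through tumor-infiltrating CD8, conventional CD4, *Foxp3*+ and *Trdc*+ cells and through migratory dendritic cells (DC) of mouse breast tumors. The cells came from MMTV-PyMT mice, on a C57BL/6 background, in which the promoter of the mouse mammary tumor virus drives polyoma middle T, an oncogene, in mammary epithelium. They were either wild-type for PAR2 or carried PAR2 G37I, a variant of this protease receptor made by knock-in and so present in every cell of the mouse. For each genotype there were 3 samples of CD11c-selected cells and 3 of CD4/CD8-selected cells, 12 in all, with no added treatment. Per the study's methods, cells were selected with beads, from late-stage tumors for CD11c and from mid-size tumors for CD4/CD8, and were frozen and thawed before they were run on the 10x Genomics platform. The labels give no age.

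The 6 samples of each selection were deposited as 1 matrix of UMI counts (unique molecular identifiers, 1 per captured transcript) whose barcodes name no sample. Each matrix was treated as 1 sample, so wild-type and PAR2 G37I cells were not compared and no p-values are given. The barcodes of each matrix pass through the alphabet 6 times, and these 6 stretches are called barcode runs. They were not linked to samples, and the spread between them is a description. Among CD4/CD8-selected cells, 22806 of 23101 barcodes had at least 200 detected genes and were kept, with a median of 4361 UMIs per cell and 51 barcode sequences seen more than once. Among CD11c-selected cells, 11639 of 11980 were kept, with a median of 7943 UMIs and 76 barcode sequences seen more than once. The level of a gene in a class is its total UMIs in the class per 1000000 UMIs of the class (CPM). Their 95% intervals are exact Poisson intervals, and like all intervals here they cover counting error only.

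CD28 and ICOS are related receptors of the immunoglobulin superfamily. CD28 binds CD80 and CD86 on antigen-presenting cells and ICOS binds ICOS ligand, and both recruit phosphoinositide 3-kinase. *Tnfrsf9* (4-1BB, CD137), *Tnfrsf4* (OX40), *Tnfrsf18* (GITR) and *Cd27* encode members of the tumor necrosis factor receptor superfamily, which signal through TRAF adaptors after binding 4-1BBL, OX40L, GITRL and CD70. CD27 is present on resting T cells, whereas 4-1BB and OX40 are known as receptors that appear after activation, and regulatory T cells carry GITR and OX40 constitutively. CD226 (DNAM-1) competes with TIGIT for the poliovirus receptor and nectin-2, and CD2 is an adhesion receptor that in the mouse binds CD48.

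Several of these genes are neighbors. In the GENCODE M21 annotation of GRCm38, *Cd28* (chr1:60716800-60773359, plus strand) and *Icos* (chr1:60977927-61000320, plus strand) flank *Ctla4*, which encodes the inhibitory rival of CD28. The gap from *Cd28* to *Ctla4* is 113640 bases and that from *Ctla4* to *Icos* is 62094 bases. *Tnfrsf4* (chr4:156013843-156016612) and *Tnfrsf18* (chr4:156026164-156028895), both on the plus strand, lie 9551 bases apart, with *Tnfrsf9* (chr4:150914562-150946102, plus strand) on the same chromosome. *Cd27* (chr6:125232622-125237010) and *Cd2* (chr3:101275899-101287939) are on minus strands. The 250 bases before the RefSeq start (GRCm38.p6) are printed for the 3 TNF receptor genes that varied most between the cell classes described here. Windows were at hand for 4 of 7 members looked up, and *Tnfrsf9* has 2 annotated starts. Capitals mark matches to the NF-kB consensus and to the AP-1 motif TGANTCA, searched on both strands.
Tnfrsf9, upstream start, chr4:150919905-150920154, plus strand: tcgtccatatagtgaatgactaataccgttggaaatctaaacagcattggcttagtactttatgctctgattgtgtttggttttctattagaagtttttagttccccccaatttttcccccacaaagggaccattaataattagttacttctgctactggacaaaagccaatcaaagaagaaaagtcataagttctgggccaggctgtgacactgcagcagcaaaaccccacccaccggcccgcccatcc
Tnfrsf9, downstream start, chr4:150927749-150927998, plus strand: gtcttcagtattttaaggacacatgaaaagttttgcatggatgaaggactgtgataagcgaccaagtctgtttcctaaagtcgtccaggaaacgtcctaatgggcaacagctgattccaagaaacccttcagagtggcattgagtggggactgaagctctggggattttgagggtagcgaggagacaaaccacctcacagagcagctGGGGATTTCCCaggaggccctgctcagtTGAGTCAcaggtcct
Tnfrsf4, chr4:156013445-156013694, plus strand: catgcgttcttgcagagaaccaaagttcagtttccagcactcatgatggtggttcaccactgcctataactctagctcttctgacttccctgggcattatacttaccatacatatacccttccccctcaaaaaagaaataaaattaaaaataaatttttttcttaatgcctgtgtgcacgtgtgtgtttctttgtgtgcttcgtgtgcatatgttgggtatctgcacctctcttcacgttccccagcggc
Tnfrsf18, chr4:156026072-156026321, plus strand: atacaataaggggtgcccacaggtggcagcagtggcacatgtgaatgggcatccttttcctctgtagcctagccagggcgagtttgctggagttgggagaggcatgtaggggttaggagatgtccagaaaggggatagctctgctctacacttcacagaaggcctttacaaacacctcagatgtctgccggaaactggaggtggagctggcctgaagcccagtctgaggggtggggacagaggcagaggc
The window at the downstream start of *Tnfrsf9* held 2 overlapping NF-kB matches, at bases -43 to -34 and -42 to -33 before the start, and 1 AP-1 match at -15 to -9. Of 32851 windows of this length, 7.25% held an NF-kB match, 6.75% an AP-1 match and 0.356% both. No match was found in the upstream *Tnfrsf9* window, in the *Tnfrsf4* and *Tnfrsf18* windows shown, or in that of *Cd27*. A match is a description of the letters and not evidence of binding.

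Classes were set by UMIs of a few genes per cell, and a gene without a UMI in a cell may still be expressed there. The 15774 CD8 cells (at least 1 *Cd8a* UMI) made up 69.2% of the CD4/CD8-selected cells and were split by detection of *Pdcd1* (PD-1), *Tcf7* (TCF1) and *Havcr2* (TIM-3). The largest states were Pdcd1+Tcf7-Havcr2- with 5386 cells and Pdcd1-Tcf7-Havcr2- with 5027, followed by Pdcd1-Tcf7+Havcr2- with 2854, Pdcd1+Tcf7+Havcr2- with 1711 and Pdcd1+Tcf7-Havcr2+ with 514. Conventional CD4 cells (*Cd4* and a *Cd3* UMI, none of *Cd8a*, *Foxp3* or *Trdc*) numbered 661, of which 61.4% came from barcode run 1. There were 115 *Foxp3*+ cells, with at least 20 cells in runs 1 and 4 only, and 43 *Trdc*+ cells, with fewer than 20 in each run. Among CD11c-selected cells, 277 were migratory DC (*Ccr7* and *Fscn1*, no *Cd3* UMI), with 5 runs of at least 20 cells, and 651 were conventional DC of type 1 (cDC1, *Xcr1* and *Clec9a*) or type 2 (cDC2, *Cd209a* and *Flt3*, no *C1qa*).

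Markers that the gates did not use were compared with these names. Pdcd1+Tcf7-Havcr2+ cells, which were terminally exhausted-like, had 295 CPM of *Tox* and 99.5 of *Lag3*, against 49.3 and 6.94 in Pdcd1-Tcf7+Havcr2- cells. The 6 markers of that list summed to 1079 CPM in them and to 267 in Pdcd1-Tcf7+Havcr2- cells. The sum was 980 in Pdcd1+Tcf7-Havcr2- cells, so these markers were not particular to the state with *Havcr2*. Over 6 progenitor-like markers (*Slamf6*, *Ccr7*, *Lef1*, *Satb1*, *Xcl1* and *Id3*), Pdcd1+Tcf7+Havcr2- cells had 658 CPM, against 651 in all CD8 cells. The sum of these was 986 in Pdcd1-Tcf7+Havcr2-, 806 in Pdcd1-Tcf7-Havcr2- and 235 in Pdcd1+Tcf7-Havcr2+ cells. The progenitor-like markers were thus not particular to the state with *Pdcd1* and *Tcf7*. *Foxp3*+ cells had 469 CPM of *Il2ra* and 1418 of *Ikzf2*, against 26.4 and 151 in conventional CD4 cells. Migratory DC had 1467 CPM of *Ccl22*, against 30.7 in cDC1 and cDC2. The 43 *Trdc*+ cells had 429.8 CPM of *Trac*, 0 of *Trdv4* and 1998 of *Krt8*, a keratin of epithelial cells. *Trdv4* is 1 of several gamma delta markers looked at, and the others are not given here. The *Krt8* level is 530 UMIs pooled over these cells and does not show how many of them held it. Their identity was thus not settled, and they are called *Trdc*+ cells only. Macrophage RNA was present in several T cell classes. The summed level of *Cd68*, *Mertk*, *Fcgr1* and *Apoe* was 112 CPM in Pdcd1-Tcf7+Havcr2-, 174 in Pdcd1+Tcf7+Havcr2-, 4038 in Pdcd1+Tcf7-Havcr2+, 1692 in *Foxp3*+ and 8700 in conventional CD4 cells. All 4 of these markers had UMIs in each of these 5 classes. The members themselves were at 0.07 (*Icos*) to 4.38 CPM (*Cd2*) in the 774 macrophage-gated cells of the same matrix, which were used as background. For *Cd226* and *Cd2* this is not a clean background. Macrophage-gated CD11c-selected cells held 11.9 CPM of each, and those with *F10* held 39.1 and 38.4.

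Every member had transcripts in CD8 cells. The CD28 family gave 334 CPM of *Cd28* (95% interval 330 to 337), with a lowest, median and highest barcode run of 281, 338 and 400.02, and 157 CPM of *Icos*, with runs of 85.9, 153 and 232. Of the inducible TNF receptors, *Tnfrsf9* was at 86.1 CPM (runs 72.7, 83.8 and 117), *Tnfrsf4* at 36.7 (runs 18.2, 37.8 and 60.4) and *Tnfrsf18* at 148 (runs 106, 150.3 and 184). *Cd27*, the receptor of resting cells, was at 272 CPM (runs 154, 289 and 386). *Cd226* was at 34.8 CPM (runs 18.4, 33.3 and 49.0) and *Cd2* at 385 (runs 331, 391 and 430). *Cd28* and *Cd2* were the steadiest between runs, and *Tnfrsf4* varied most, with its highest run more than 3 times its lowest. After each cell was thinned to 2000 UMIs, 45.9% of CD8 cells had a *Cd28* UMI and 3.71% a *Tnfrsf4* UMI, against 0.543% and 0% of 737 macrophage-gated cells. Unthinned, the shares were 68.5% and 7.52% of CD8 cells at a median of 4726 UMIs, against 2.84% and 1.29% of macrophage-gated cells at a median of 17243.

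**Figure D1:**
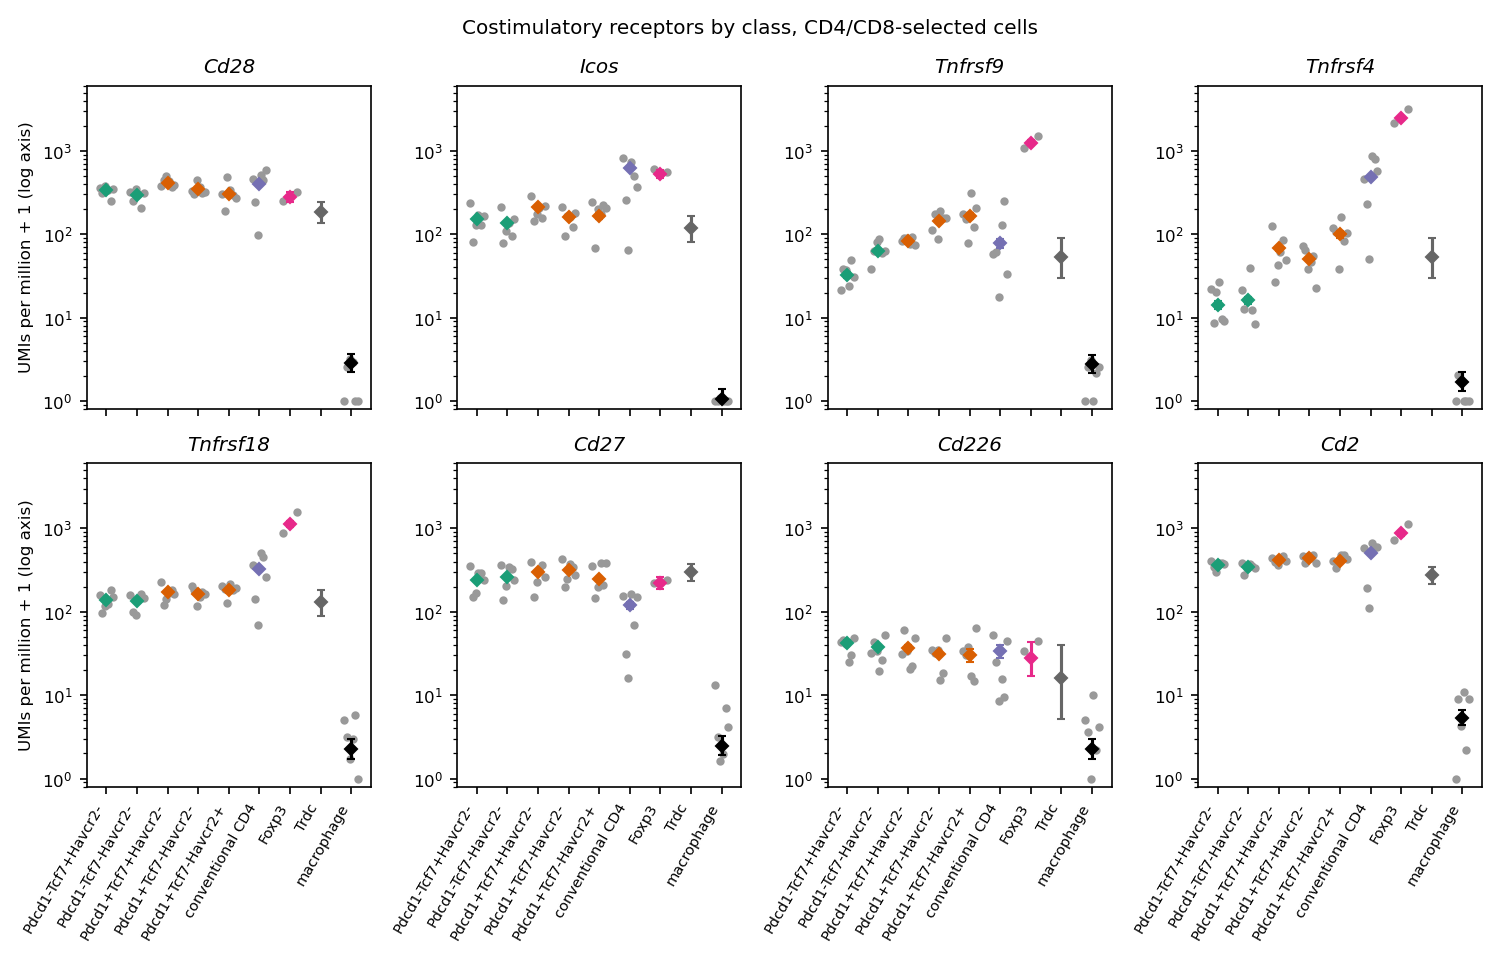
Level of each of the 8 receptors (UMIs per 1000000 UMIs of the class, plus 1, log axis) in classes of CD4/CD8-selected cells. Diamonds show all cells of a class with the exact 95% Poisson interval and grey dots show barcode runs with at least 20 cells of it. *Tnfrsf9*, *Tnfrsf4* and *Tnfrsf18* stand highest in *Foxp3*+ cells, and *Icos* in conventional CD4 cells, above *Foxp3*+ cells with all 6 runs but not without run 1.

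Among CD8 states, 2 receptors separated cells with *Pdcd1* and *Havcr2* from cells with *Tcf7* alone, and the other members were under 2-fold. *Tnfrsf9* was at 164 CPM in Pdcd1+Tcf7-Havcr2+ cells (runs 77.0, 163 and 312) and at 31.4 in Pdcd1-Tcf7+Havcr2- cells (runs 20.3, 33.1 and 48.4). Every run of the first state lay above every run of the second. The ratio was 5.21 (95% counting interval 4.66 to 5.82), and it was above 1 in 6 of 6 runs, from 2.14 to 13.3. *Tnfrsf4*, which encodes the late activation receptor OX40, was at 99.5 CPM (runs 37.2, 105 and 162) against 13.1 (runs 7.54, 13.9 and 25.9), again without overlap. Its ratio was 7.57 (6.47 to 8.89), above 1 in 6 of 6 runs. *Tnfrsf18* was at 180.2 CPM against 135, a ratio of 1.33 (1.22 to 1.45), and its runs overlapped between the states (125 to 215 against 96.8 to 181). The members past 2-fold were thus 2 of 8, both higher, where 8.99% of the 7545 genes at 10 CPM or more were 2-fold higher and 2.54% 2-fold lower. The median log2 difference of the 8 members was 0.13, against 0.24 for all of these genes.

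*Cd28*, *Icos*, *Cd27* and *Cd2* had ratios between 0.91 and 1.10 in the same comparison, and each crossed 1 under some alternative. *Cd226*, the receptor that shares its ligands with TIGIT, was at 29.3 CPM in Pdcd1+Tcf7-Havcr2+ cells and at 41.5 in Pdcd1-Tcf7+Havcr2- cells, a ratio of 0.712 (0.577 to 0.858), with lower values in 5 of 6 runs. This ratio turned with the gate, to 1.13 with thinning before gating and to 0.423 with 2 UMIs required of gate genes. The RNA of macrophages moved with this comparison, with *Apoe* at 3912 CPM in Pdcd1+Tcf7-Havcr2+ cells. When cells with at least 2 UMIs over 5 macrophage and epithelial genes were left out, 457 of 514 cells of that state stayed and *Apoe* was at 99.6 CPM. *Tnfrsf9* was then at 188 CPM and *Tnfrsf4* at 105, and the ratios were 5.95 and 8.22. The *Tnfrsf4* ratio fell to 4.82 where CD8 cells with a *Cd4*, *Foxp3* or *Trdc* UMI were left out, and to 2.00 where cells were thinned to 2000 UMIs before gating.

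Cells with both *Pdcd1* and *Tcf7* but no *Havcr2* took a middle place for *Tnfrsf9*. Progenitor exhausted cells are usually sorted by this combination, but the progenitor-like markers were not particular to it here. *Tnfrsf9* was at 81.1 CPM in Pdcd1+Tcf7+Havcr2- cells, with runs of 72.7, 84.7 and 92.5, all above the runs of Pdcd1-Tcf7+Havcr2- cells. The ratio to the latter was 2.58 (2.33 to 2.85), above 1 in 6 of 6 runs. *Tnfrsf4* was at 67.3 CPM (runs 25.7, 53.8 and 124) in the same cells, a ratio of 5.11 (4.46 to 5.91), above 1 in 6 of 6 runs, although its lowest run fell just below the highest of Pdcd1-Tcf7+Havcr2- cells. The ratio was 3.00 with thinning before gating and 10.97 with 2 UMIs required of gate genes. These 2 members were the ones past 2-fold, and 1.52% of genes were 2-fold higher and 1.48% 2-fold lower.

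The CD28 family was also higher in Pdcd1+Tcf7+Havcr2- than in Pdcd1-Tcf7+Havcr2- cells, by less than 2-fold. *Cd28* was at 413 CPM against 335, a ratio of 1.23 (1.19 to 1.28), and *Icos* at 209 against 152, a ratio of 1.38 (1.31 to 1.45). Both ratios were above 1 in 6 of 6 runs, as were those of *Cd27*, at 1.24, and *Cd2*, at 1.14. *Cd226* had a ratio of 0.86, with lower values in 5 of 6 runs.

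Between the 2 *Pdcd1*+ states, *Cd28* and *Tnfrsf9* went opposite ways. *Cd28* was at 413 CPM in Pdcd1+Tcf7+Havcr2- cells (runs 373, 415 and 496) and at 304 in Pdcd1+Tcf7-Havcr2+ cells (runs 190.3, 298 and 487), a ratio of 1.36 (1.27 to 1.44), above 1 in 6 of 6 runs although the runs overlap. *Tnfrsf9* was 2.02-fold lower (1.83 to 2.23) in Pdcd1+Tcf7+Havcr2- cells, in 5 of 6 runs. It was the only member past 2-fold, where 6.65% of genes were 2-fold lower and 1.62% 2-fold higher. It lies at the threshold and fell short of it when mitochondrial and ribosomal genes were taken out of the totals, when 2 UMIs of gate genes were required, and without run 1, 4 or 6 (ratios of 0.503, 0.589 and 0.524). *Icos* had a ratio of 1.26, above 1 in 4 of 6 runs, and *Tnfrsf4* one of 0.675, below 1 in 3 of 6 runs and 1.5 with thinning before gating. The *Cd28* and *Icos* ratios were 1.15 and 1.04 without run 2, and 1.17 and 1.05 with the stricter CD8 gate.

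**Figure D2:**
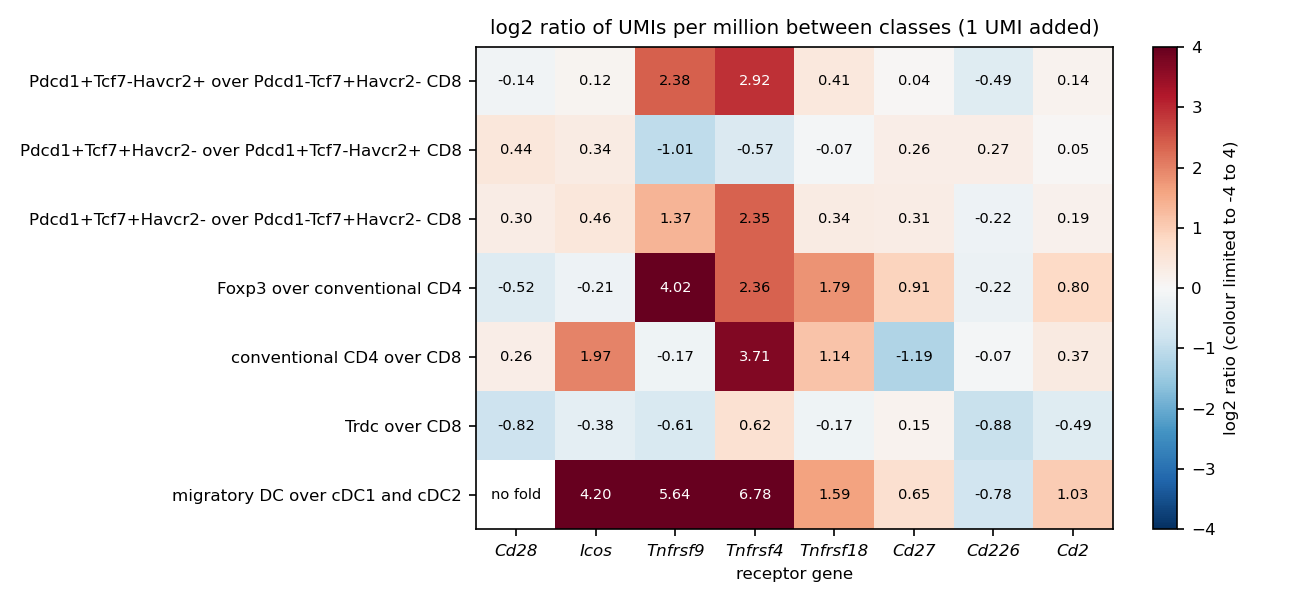
Ratio of the level of each receptor between cell classes as log2 values with 1 UMI added to each sum, for the 8 genes (columns) and 7 comparisons (rows), with the colour scale limited to 4 in either direction. The *Tnfrsf9* and *Tnfrsf4* columns hold 4.02 and 2.36 in *Foxp3*+ over conventional CD4 cells and 5.64 and 6.78 in migratory DC over cDC1 and cDC2.

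CD8 cells were also graded by the number of UMIs of each gate gene after thinning to 2000 UMIs, and *Tnfrsf9* kept its order while *Tnfrsf4* did so in part. *Tnfrsf9* was at 62.0 CPM in 9556 cells with no *Pdcd1* UMI, at 109 in 2844 cells with 1, at 135 in 1278 cells with 2 and at 156 in 912 cells with 3 or more. With *Tcf7* it went the other way, from 90.7 CPM in 12441 cells with none to 41.7 in 1810 cells with 1, 36.1 in 277 cells with 2 and 32.3 in 62 cells with 3 or more. Cells with 1 *Havcr2* UMI, 273 in number, had 169 CPM of *Tnfrsf9* against 81.7 in 14291 cells with none. *Cd28* was at 366 CPM without *Tcf7* and at 436, 525 and 460 with 1, 2 and 3 or more UMIs, and *Icos* at 165, 203, 220.2 and 266. *Tnfrsf4* was at 22.9 CPM without *Pdcd1* and at 40.4, 47.3 and 39.5 with 1, 2 and 3 or more UMIs, and the intervals of the last 3 overlap. It did not fall with *Tcf7*, at 29.3, 29.6, 36.1 and 40.3 CPM with 0, 1, 2 and 3 or more UMIs. With 1 *Havcr2* UMI it was at 40.3 CPM (25.3 to 61.0) against 29.2 (27.3 to 31.3) with none, and these intervals overlap. *Cd27* was at 288, 351, 346 and 397 CPM over the same steps of *Pdcd1*.

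**Figure D3:**
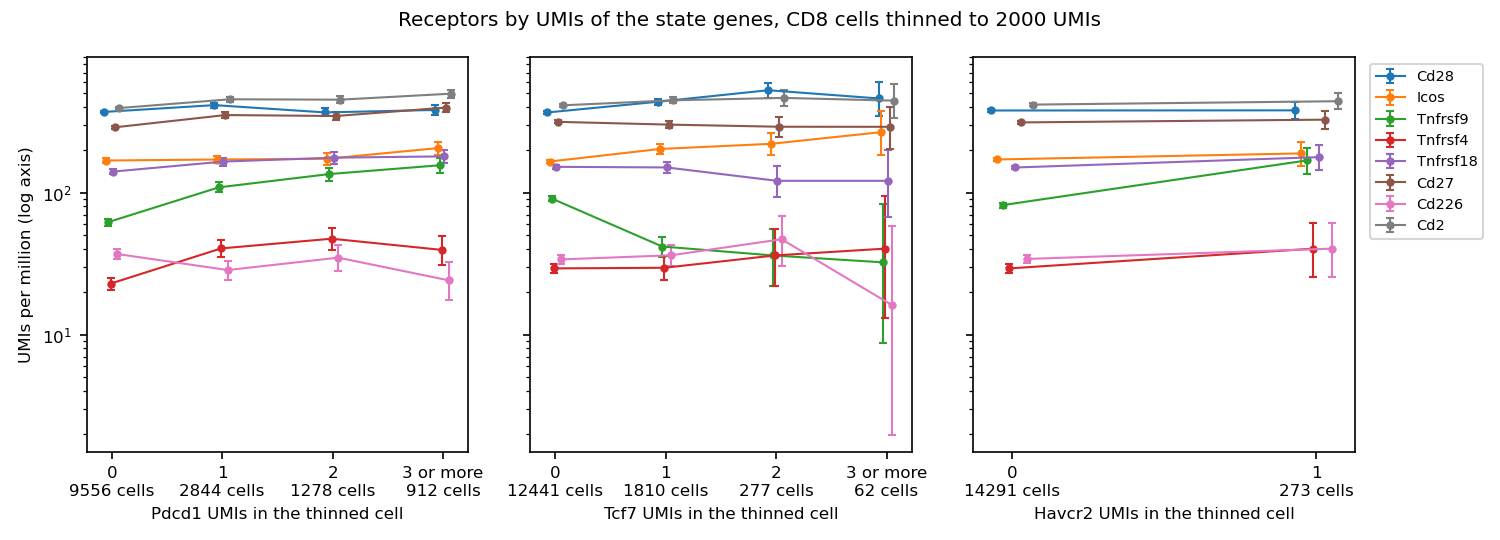
Level of each receptor (UMIs per 1000000, log axis, with exact 95% Poisson intervals) in CD8 cells thinned to 2000 UMIs and grouped by their UMIs of *Pdcd1*, *Tcf7* or *Havcr2*. *Tnfrsf9* climbs with *Pdcd1*, from 62.0 to 156, and falls with *Tcf7*, from 90.7 to 32.3.

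A split by *Mki67*, a proliferation gene, gave a further description of CD8 cells. In 1798 cells with *Mki67*, *Cd27* was at 188 CPM against 293 in the rest, while *Tnfrsf9* was at 95.3 against 83.9 and *Cd2* at 348 against 395. Summed macrophage markers stood at 1566 CPM with *Mki67* and 911 without, and their part in these values was not tested.

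Conventional CD4 cells differed from CD8 cells in 4 receptors. *Tnfrsf4* was at 481 CPM in conventional CD4 cells (runs 48.9, 517 and 856) and at 36.7 in CD8 cells, a ratio of 13.1 (12.4 to 13.9), above 1 in 6 of 6 runs from 1.85 to 31.8. *Icos* was at 615 CPM (runs 64.0, 435 and 819) against 157, a ratio of 3.93 (3.76 to 4.11), above 1 in 5 of 6 runs. *Tnfrsf18* was at 327 CPM (runs 67.7, 308 and 499) against 148, a ratio of 2.21 (2.08 to 2.34), above 1 in 5 of 6 runs. OX40, ICOS and GITR transcripts were thus higher in CD4 cells over all cells, and the runs of each overlapped those of CD8 cells. *Cd27* was 2.28-fold lower (2.08 to 2.52), at 119 CPM (runs 15.1, 110 and 164), and it was lower in 6 of 6 runs. The members past 2-fold were 3 higher and 1 lower of 8, where 8.54% of genes were 2-fold higher and 2.65% 2-fold lower.

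*Cd28*, *Cd2*, *Cd226* and *Tnfrsf9* had ratios of 1.20, 1.29, 0.95 and 0.892 between conventional CD4 and CD8 cells. Without run 1 *Cd226* was past 2-fold lower (0.436), and it was above 1 without mixed cells (1.20). *Tnfrsf9* was above 1 with thinning before gating (1.28), a mean over cells (1.14), without mixed cells (1.12), without run 1 (1.08) and without runs 2 and 3 (1.03). Barcode run 3 had the lowest value of all 8 members in the CD4 class. Macrophage RNA was high in this class, at 8418 CPM of *Apoe*. Without the 58 cells that held macrophage or epithelial transcripts, *Apoe* was at 39.9 CPM and every member was higher, with *Tnfrsf4* at 614 CPM, *Icos* at 786 and *Cd27* at 155. The *Tnfrsf4* and *Icos* ratios to CD8 cells were then 17.2 and 4.77. The *Tnfrsf4* ratio was 21.4 against CD8 cells with no *Cd4*, *Foxp3* or *Trdc* UMI and 22.5 with thinning before gating. *Tnfrsf18* was 1.93-fold higher with 2 UMIs required of gate genes and 1.95-fold higher without run 4. *Cd27* was less than 2-fold lower without mixed cells (0.541), with a mean over cells and with thinning.

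*Foxp3*+ cells, which were regulatory T cell-like by these markers, had the highest levels of *Tnfrsf9*, *Tnfrsf4*, *Tnfrsf18* and *Cd2* among the T cell classes. *Tnfrsf9* was at 1246 CPM, with 1089 in run 1 and 1496 in run 4, against 76.6 in conventional CD4 cells, a ratio of 16.2 (14.2 to 18.7). *Tnfrsf4* was at 2462 CPM, with 2158 and 3202 in these runs, against 481, a ratio of 5.12 (4.78 to 5.47). *Tnfrsf18* was at 1129 CPM, with 874 and 1553 in these runs, against 327, a ratio of 3.45 (3.15 to 3.78). For these 3 receptors both runs of *Foxp3*+ cells lay above all 6 runs of conventional CD4 cells. They were the members past 2-fold, 3 of 8, where 5.33% of genes were 2-fold higher and 8.3% 2-fold lower, and the median log2 difference was 0.85 for members and 0.09 for all genes.

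The other members were closer between *Foxp3*+ and conventional CD4 cells. *Cd27* was at 222 CPM in *Foxp3*+ and 119 in conventional CD4 cells, a ratio of 1.87 (1.54 to 2.25), and *Cd2* at 867 and 499, a ratio of 1.74 (1.58 to 1.91). *Cd28* had a ratio of 0.699 (0.594 to 0.810) and *Icos* one of 0.864 (0.768 to 0.964), both below 1 in 2 of 2 runs. The *Icos* direction did not hold without run 1 (1.17) or with 2 UMIs required of gate genes (1.05). *Cd226* had 18 UMIs in *Foxp3*+ cells, and its ratio of 0.856 has an interval that includes 1 (0.469 to 1.35). It was 1.69 without run 1, 0.545 without run 4 and 1.73 with thinning before gating. *Apoe* was lower in *Foxp3*+ cells, at 1638 CPM. With mixed cells left out of both classes the ratios of *Tnfrsf9*, *Tnfrsf4* and *Tnfrsf18* were 13.2, 4.20 and 2.80, and that of *Cd28* was 0.474. Without run 1, which held most conventional CD4 cells, *Cd27* and *Cd2* had ratios of 2.6 and 2.27.

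The 115 *Foxp3*+ cells were 0.504% of the CD4/CD8-selected cells and held 19.9% of all *Tnfrsf4* UMIs of the matrix, 1653 of 8292. They held 8.44% of the *Tnfrsf9* UMIs and 4.18% of those of *Tnfrsf18*. Conventional CD4 cells, 2.90% of the cells, held 21.1% of the *Tnfrsf4* and 11.0% of the *Icos* UMIs, but 1.45% of those of *Cd27*. CD8 cells held 40.8% of the *Tnfrsf4* and 80.1% of the *Tnfrsf9* UMIs. This CD8 gate kept cells with a *Cd4*, *Foxp3* or *Trdc* UMI, and these shares were not recomputed without them. With the stricter CD8 gate the *Tnfrsf4* ratio of conventional CD4 to CD8 cells was 21.4 in place of 13.1. After thinning, 92.5% of 106 *Foxp3*+ cells had a *Tnfrsf4* UMI (exact 95% interval 85.7% to 96.7%) and 74.5% a *Tnfrsf9* UMI (65.1% to 82.5%). In 627 thinned conventional CD4 cells the shares were 47.4% and 8.93%.

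The 43 *Trdc*+ cells had no member past 2-fold against CD8 cells, where 10.6% of genes were 2-fold higher and 4.68% 2-fold lower. The ratios ran from 0.542 (*Cd226*, 4 UMIs) to 1.54 (*Tnfrsf4*, 14 UMIs, 0.785 to 2.42). *Cd28* was lower, at 185 CPM against 334, a ratio of 0.565 (0.410 to 0.732), and *Cd27* was at 298 against 272, with an interval of the ratio from 0.866 to 1.36. The intervals of the ratio ran from 0.335 to 1.03 for *Tnfrsf9* (14 UMIs) and from 0.507 to 1.06 for *Icos* (31 UMIs), so at this depth neither difference was larger than counting error. The *Tnfrsf4* ratio was 4.10 with a mean over cells and 2.51 against the stricter CD8 gate or without run 4, but 0.759 without run 5. Without run 5 *Icos*, *Tnfrsf9* and *Cd226* were past 2-fold lower (0.477, 0.432 and 0.246), whereas without run 4 *Icos* and *Tnfrsf9* had ratios of 1.21 and 1.08.

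Ordered by level, the classes differed from receptor to receptor. For *Tnfrsf9* the order was *Foxp3*+ (1246), Pdcd1+Tcf7-Havcr2+ (164), Pdcd1+Tcf7-Havcr2- (142), Pdcd1+Tcf7+Havcr2- (81.1), conventional CD4 (76.6), Pdcd1-Tcf7-Havcr2- (62.2) and Pdcd1-Tcf7+Havcr2- (31.4), and of these neighbors Pdcd1+Tcf7+Havcr2- and conventional CD4 had overlapping intervals. For *Tnfrsf4* it was *Foxp3*+ (2462), conventional CD4 (481), Pdcd1+Tcf7-Havcr2+ (99.5), Pdcd1+Tcf7+Havcr2- (67.3), Pdcd1+Tcf7-Havcr2- (49.3), Pdcd1-Tcf7-Havcr2- (15.2) and Pdcd1-Tcf7+Havcr2- (13.1), the last 2 with overlapping intervals. *Icos* placed conventional CD4 (615) above *Foxp3*+ cells (530.1), an order that turned without run 1 and with 2 UMIs required of gate genes, then Pdcd1+Tcf7+Havcr2- cells (209). *Cd28* was highest in Pdcd1+Tcf7+Havcr2- (413) and conventional CD4 cells (400.5), which were not separated by counting error. *Cd27* had its highest level in Pdcd1+Tcf7-Havcr2- cells (313) and *Cd226* in Pdcd1-Tcf7+Havcr2- cells (41.5, 38.7 to 44.4). This *Cd226* interval overlapped those of several classes, the nearest being Pdcd1-Tcf7-Havcr2- cells (36.6, 34.3 to 39.1). *Trdc*+ cells and the 3 CD8 states with under 200 cells are left out of these orders.

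Receptors were also counted per cell, after thinning to 2000 UMIs. CD8 cells had UMIs of 2.11 members on average, conventional CD4 cells of 3.12 and *Foxp3*+ cells of 4.74, against 0.0204 in macrophage-gated cells. At least 4 members were seen in 12.9% of CD8, 42.4% of conventional CD4 and 84.0% of *Foxp3*+ cells.

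**Figure D4:**
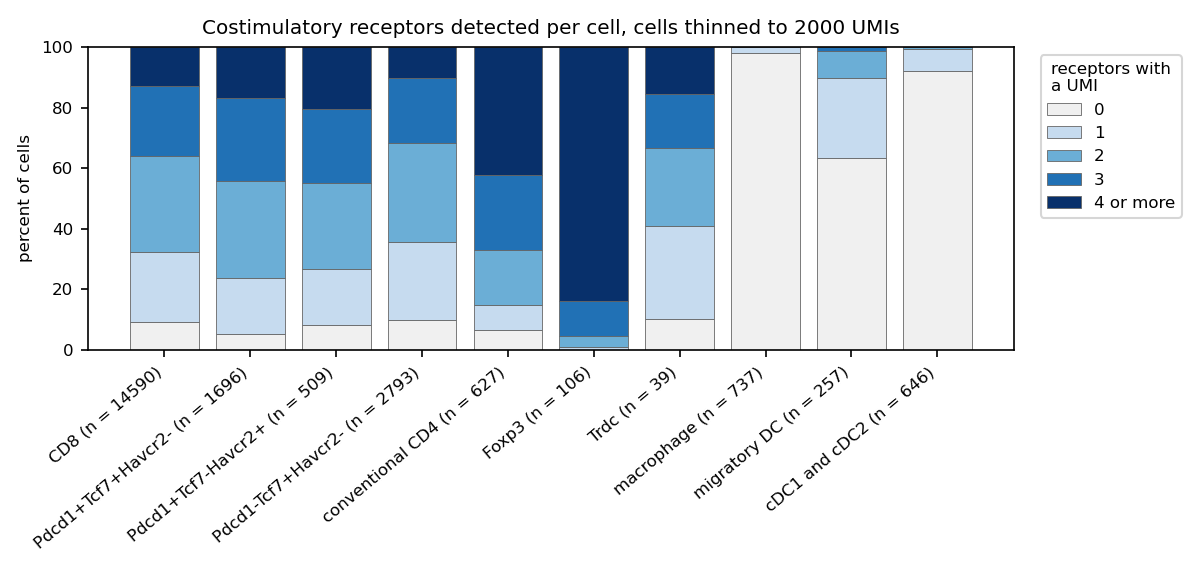
Share of cells (percent) with UMIs of 0, 1, 2, 3 or at least 4 of the 8 receptors after each cell was thinned to 2000 UMIs, by class. The share with at least 4 is 12.9% in CD8, 42.4% in conventional CD4 and 84.0% in *Foxp3*+ cells.

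Within CD8 cells, each inducible TNF receptor was detected more often in cells with a UMI of another than in cells without, although most cells with 1 of them lacked the others. A *Tnfrsf4* UMI was present in 8.38% of the 1779 thinned CD8 cells with *Tnfrsf9* and in 3.06% of the 12811 without, a ratio of 2.74, above 1 in 6 of 6 runs. *Tnfrsf18* was present in 45.5% of the 541 cells with *Tnfrsf4* and in 23.2% of those without, a ratio of 1.96, and *Icos* in 36.2% and 23.9%, each higher in 6 of 6 runs. *Cd28* accompanied *Icos*, which was present in 27.9% of cells with *Cd28* and 21.4% of those without, in 6 of 6 runs. *Tnfrsf9* was less frequent in cells with *Cd28*, 10.4% against 13.7%, in 5 of 6 runs. *Cd226* was present in 6.34% of cells with *Cd28* and in 6.20% of those without. These shares pool all CD8 states, and the states differ in them. The CD8 gate also kept cells with a *Cd4*, *Foxp3* or *Trdc* UMI or without a *Cd3* UMI. Without such cells 14585 of 15774 remained, and the shares were not recomputed in them.

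Migratory DC, which carry antigen to lymph nodes, held transcripts of 3 TNF receptors. *Tnfrsf4* was at 135 CPM (445 UMIs), with values of 92.9, 152 and 168 in the lowest, median and highest of 5 runs, against 1.15 CPM (13 UMIs) in cDC1 and cDC2. The ratio was 110 (68.4 to 224). *Tnfrsf9* was at 83.1 CPM (runs 60.7, 74.8 and 143) against 1.59, a ratio of 49.8 (32.5 to 89.7), and *Tnfrsf18* at 69.4 (runs 62.4, 70.8 and 83.7) against 23.0, a ratio of 3.02 (2.52 to 3.62). For these 3 receptors every run of migratory DC lay above every run of cDC1 and cDC2 together, and the ratio was above 1 in 5 of 5 runs. The *Tnfrsf4* and *Tnfrsf9* ratios rest on 13 and 18 UMIs in the conventional DC, and fell to 18.4 and 18.7 with thinning before gating. That of *Tnfrsf9* was 94.9 without run 3. The *Tnfrsf18* ratio stayed between 2.90 and 3.56 in all settings tried. Macrophage RNA was at 1499 CPM of *Apoe* in migratory DC and 1451 in conventional DC. With mixed cells left out, 146 of 277 migratory DC stayed and the ratios of *Tnfrsf4*, *Tnfrsf9* and *Tnfrsf18* were 160.1, 38.2 and 3.27.

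The T cell-restricted members were near 0 in migratory DC. *Cd28* had 1 UMI and *Cd27* 4 UMIs in the 277 cells. *Icos* had 15 UMIs, or 4.57 CPM, against 2 UMIs in conventional DC, a ratio of 25.9 (6.03 to 233). T cell receptor transcripts were low as well, with 9 UMIs of *Trac* in migratory DC (2.74 CPM) and 5 in conventional DC, and their part in the *Icos* value was not tested. *Cd2* had 22 against 38 UMIs, a ratio of 2.04 (1.13 to 3.47), above 1 in 4 of 5 runs. It was 1.64 with a mean over cells, 4.91 without mixed cells, and 1.74, 1.22 and 3.40 without run 1, 3 or 4. The *Icos* ratio with 1 UMI added was 18.4, and 40.4 with 2 UMIs required of gate genes. *Cd226* went the other way, at 8.53 CPM against 15.1, a ratio of 0.582 (0.365 to 0.847), with 16.6 CPM in cDC1 and 9.60 in cDC2. It was past 2-fold lower with a mean over cells (0.305) and with thinning before gating (0.0933). Of 7 members with more than 3 UMIs in either class, 5 were 2-fold higher. Only 4 of the 8 members (*Tnfrsf9*, *Tnfrsf18*, *Cd226* and *Cd2*) reached 10 CPM over the whole matrix, the filter by which 12.0% of genes were 2-fold higher and 9.0% 2-fold lower. Without that filter the shares were 25.5% and 9.17%. These cover all genes with at least 1 UMI in either class, whereas the 7 members had more than 3, so neither share matches the count exactly. After thinning, 19.5% of 257 migratory DC had a *Tnfrsf4* UMI, 16.0% a *Tnfrsf9* UMI and 10.5% a *Tnfrsf18* UMI, against 0.464%, 0.464% and 3.87% of 646 conventional DC and 0.168%, 0.840% and 0.722% of 5953 macrophage-gated cells. Unthinned, the migratory DC shares were 44.4%, 37.9% and 38.6% at a median of 10410 UMIs, against 2.00%, 1.54% and 28.3% of conventional DC at a median of 15369.

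**Figure D5:**
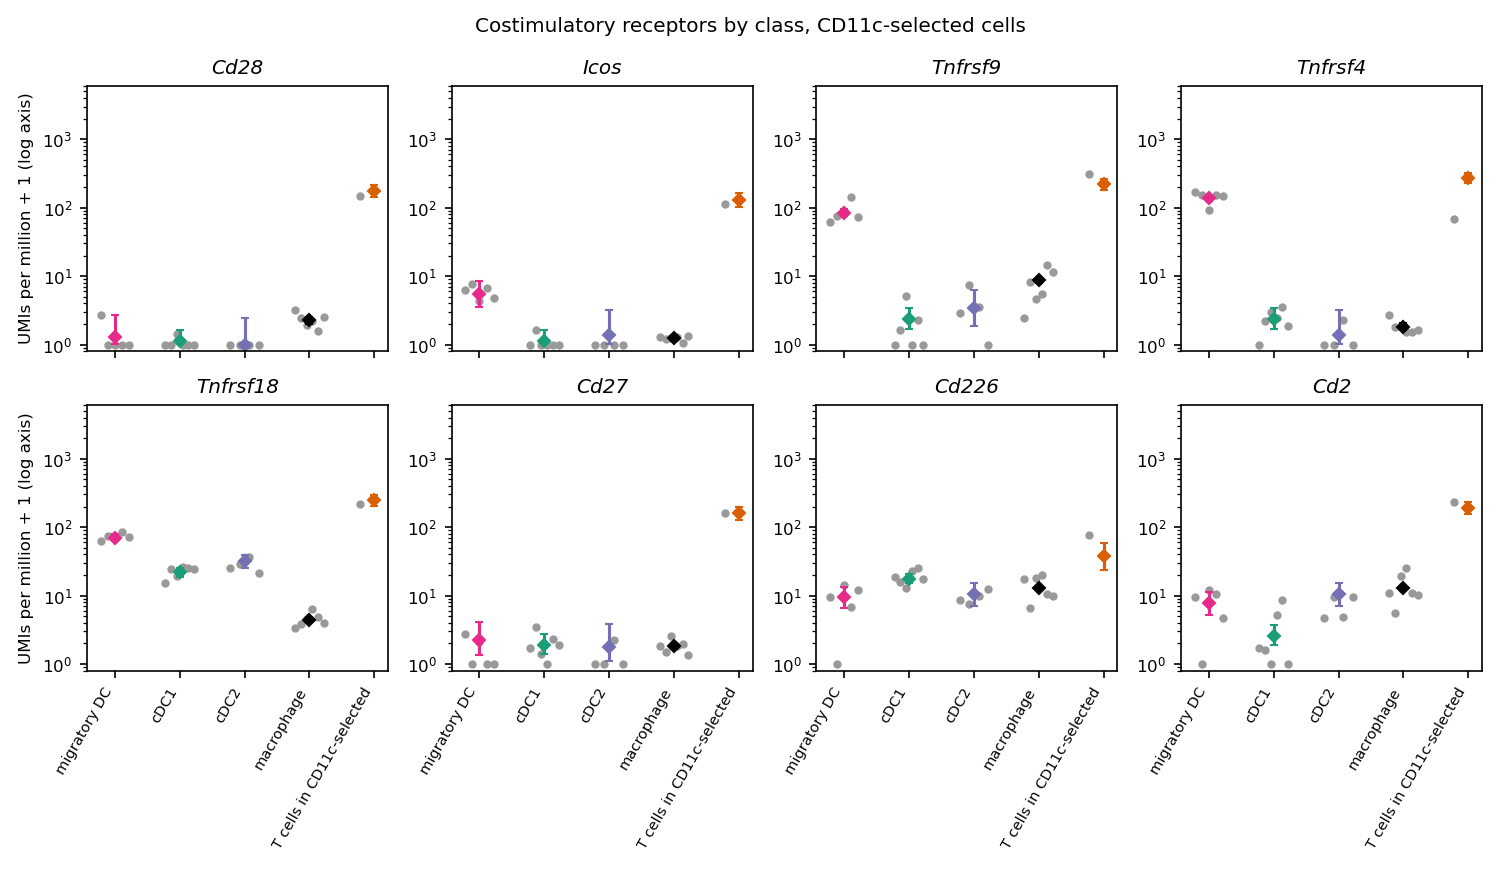
Level of each receptor (UMIs per 1000000 UMIs of the class, plus 1, log axis) in migratory DC, cDC1, cDC2, macrophage-gated and T cells of the CD11c-selected matrix. Diamonds show all cells with the exact 95% Poisson interval and grey dots show barcode runs with at least 20 cells. *Tnfrsf4*, *Tnfrsf9* and *Tnfrsf18* stand at 135, 83.1 and 69.4 in migratory DC.

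The ligands of these receptors were followed in the same DC. Of 10 ligand genes, 5 were 2-fold or more higher in migratory DC than in cDC1 and cDC2 and 2 were lower, with a median log2 difference of 1.01 against -0.06 for all genes. Only 7 of the 10 passed the filter on gene level, by which 12.0% of genes were 2-fold higher and 9.0% lower. Without the filter the shares were 25.5% and 9.17%. Those cover all genes with at least 1 UMI in either class, whereas the ligands counted had more than 3, so neither share matches these counts exactly. *Tnfsf4* (OX40L) was at 43.5 CPM against 4.32, a ratio of 9.95, and *Cd80*, a ligand of CD28, at 195 against 92.5, a ratio of 2.11, each higher in 5 of 5 runs. *Tnfsf9* (4-1BBL) was at 68.5 CPM against 31.9, in 4 of 5 runs. *Cd70* had 49 UMIs against 4, and *Nectin2*, a ligand of CD226, was at 17.4 CPM against 1.32. *Pvr*, the other ligand of CD226, was at 130.0 CPM against 68.0, and *Cd86* at 342 against 286, both under 2-fold. *Cd48*, the ligand of CD2, was 2.67-fold lower, at 64.2 CPM against 172, and *Tnfsf18* (GITRL) had 0 UMIs against 12. *Icosl* was at 24.4 CPM against 25.1.

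Among the 4 inhibitory receptors that share a ligand with a member, *Ctla4* went the same way as *Tnfrsf9* and *Tnfrsf4* in 3 T cell comparisons and not in DC. It was at 203 CPM in Pdcd1+Tcf7-Havcr2+, 121 in Pdcd1+Tcf7+Havcr2- and 47.7 in Pdcd1-Tcf7+Havcr2- cells, with ratios of 4.25 and 2.54 to the last, each above 1 in 6 of 6 runs. In *Foxp3*+ cells it was at 1089 CPM against 190.3 in conventional CD4 cells, a ratio of 5.72. In migratory DC it had 2 UMIs against 25 in cDC1 and cDC2, or 0.609 against 2.20 CPM. *Cd244a*, a receptor that like CD2 binds CD48, was at 19.8 CPM in Pdcd1+Tcf7-Havcr2+ cells against 3.82, a ratio of 5.18, and *Tigit* at 7.52 against 2.87. In migratory DC *Cd244a* was at 5.48 CPM against 28.6, lower in 5 of 5 runs. In the 13 adaptors and kinases of these receptors, 0 were 2-fold higher and 1 2-fold lower in Pdcd1+Tcf7-Havcr2+ than in Pdcd1-Tcf7+Havcr2- cells. Of all genes past the filter, 8.99% were higher and 2.54% lower there. The lower adaptor was *Cd2ap*, at 10.8 CPM against 24.5. In *Foxp3*+ over conventional CD4 cells 2 were higher, where 5.33% of genes were. They were *Traf1* at 555 CPM against 161 and *Traf3* at 113 against 36.6, both adaptors of TNF receptors. In migratory DC over cDC1 and cDC2, 5 were higher and 2 lower, and 12 of the 13 passed the filter. Of genes past it, 12.0% were higher and 9.0% lower. *Traf1* was at 776 CPM against 260.2, *Traf3* at 104 against 27.4 and *Pik3r1*, the regulatory subunit of phosphoinositide 3-kinase, at 597 against 96.3.

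Within CD8 cells, ligand transcripts also differed. *Tnfsf4* was at 18.3 CPM in Pdcd1+Tcf7+Havcr2- cells and at 3.87 in Pdcd1-Tcf7+Havcr2- cells, a ratio of 4.67, above 1 in 6 of 6 runs, with *Apoe* at 159 and 101 CPM. *Cd86* was at 71.4 CPM in Pdcd1+Tcf7-Havcr2+ cells against 18.3, and *Cd80* at 9.52 against 2.31. Both are genes of antigen-presenting cells and moved with the macrophage RNA of that state, whose part was not tested.

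Genes with patterns most like each member were sought over 42 points, each a T cell class in 1 barcode run with at least 20 cells, by Pearson's r of log2(CPM + 10) among 7545 genes. The points share libraries, although no cell is in more than 1 point, so r is a description. *Foxp3*+ cells gave points in runs 1 and 4 only. These few points, with the highest *Tnfrsf9*, *Tnfrsf4* and *Tnfrsf18*, can weigh heavily on r. *Tnfrsf9* was most like *Ikzf4* (0.94), *Ikzf2* (0.86) and *Batf* (0.85), of which the first pair are transcription factors of regulatory T cells. *Tnfrsf4* was most like *Hif1a* (0.92), *Mif4gd* (0.90) and *Stx11* (0.90), and *Tnfrsf18* like *Odc1* (0.94), *Gata3* (0.94) and *Stat5a* (0.89). *Icos* was most like *Rora* (0.90), *Slamf1* (0.87) and *Aebp2* (0.87), and *Cd28* like *Stat4* (0.88), *Ppp1r12a* (0.87) and *9930111J21Rik2* (0.85). *Cd27* was most like *Sh2d2a* (0.88), *Selplg* (0.87) and *Mbnl1* (0.87), and *Cd2* like *Isy1* (0.93), *Rhof* (0.90) and *Fam107b* (0.90). *Cd226* had no close match, with *Hsp90ab1* (0.70), *Nasp* (0.69) and *Tex30* (0.68) nearest. Among the members, r was 0.85 for *Tnfrsf18* with *Cd2*, 0.84 for *Tnfrsf18* with *Tnfrsf4* and 0.82 for *Icos* with *Tnfrsf18*, and at most 0.38 for *Cd226* with any other member.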

How the data were processed

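The files deposited by the authors hold raw UMI counts, a matrix of genes by cells for each of the 2 selections. The labels name Cell Ranger 3.0.2 and mm10, and the annotation used for counting is not given in the sources used here. Barcodes name no sample, so the planned edgeR test of wild-type against PAR2 G37I was not run, and no columns of per-sample values were used.

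A cell was kept if 200 or more genes were detected in it. The 7 comparisons used UMIs summed per class and scaled to 1000000 (CPM), with exact 95% Poisson intervals, and ratios with 1 UMI added to each sum and exact counting intervals of the ratio without it. No ratio was formed where both sums held 3 UMIs or fewer. The share of genes past 2-fold was taken over genes at 10 CPM or more in the whole matrix, gate genes left out. Shares of cells have Clopper-Pearson intervals, and thinning drew 2000 UMIs per cell with seed 1. The depth was a median of 4361 UMIs per CD4/CD8-selected cell and 7943 per CD11c-selected cell, and intervals cover counting error only. Barcode runs were used with at least 20 cells of a class.

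Classes by UMIs per cell were as follows. CD8 cells had *Cd8a*. *Foxp3*+ cells had *Foxp3* and a *Cd3* UMI and no *Cd8a*. *Trdc*+ cells had *Trdc* and a *Cd3* UMI and no *Cd8a*, *Cd4* or *Foxp3*. Macrophage-gated cells had *C1qa*, *C1qb* and *Csf1r* and no *Cd3* or *Cd8a*. No doublet caller was run. Cells with at least 2 UMIs over *C1qa*, *C1qb*, *C1qc*, *Epcam* and *Krt18* were called mixed and left out as an alternative. The other alternatives were stricter cells (500 genes, at most 10% mitochondrial UMIs), a mean over cells, totals without mitochondrial and ribosomal genes, 2 UMIs for positive gate genes, thinning before gating, a stricter CD8 gate, no filter on gene level, and each barcode run left out.

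Members, gates, lists and alternatives were chosen with earlier results of these data known. All 8 members are named. Genes of 3 lists (10 ligands, 4 inhibitory receptors that share a ligand, 13 adaptors and kinases) are named where they passed 2-fold or bind a member described, as are the 3 genes of most similar pattern. Computations used Python 3.11.15, numpy 2.4.6, scipy 1.17.1, pandas 2.3.3 and matplotlib 3.10.9, and the ratio computation was tested on simulated data. A split of CD8 cells by 1 further gene is not reported here.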

Additional observations from a re-analysis of the deposited data

How the results depend on the processing

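No paired analysis was possible because the barcodes carry no sample name, so replicate numbers could not be tied to cells, and no result has a test. Of the member ratios recomputed under the alternatives, 531 moved by less than their counting interval, 237 moved further and 0 of those past 2-fold changed direction. The 531 include the alternative without a filter on gene level. That filter does not enter a member ratio or the number of members past 2-fold, so this alternative could move neither. The number of members past 2-fold stayed within 1.5 times that reported for Pdcd1+Tcf7-Havcr2+ and Pdcd1+Tcf7+Havcr2- over Pdcd1-Tcf7+Havcr2- cells, conventional CD4 over CD8 cells and migratory over conventional DC. For Pdcd1+Tcf7+Havcr2- over Pdcd1+Tcf7-Havcr2+ cells, where *Tnfrsf9* alone was past 2-fold, it was 0 with mitochondrial and ribosomal genes out of the totals, 0 with 2 UMIs for gate genes, and 0 to 1 with a barcode run left out (0 without run 1, 4 or 6). For *Foxp3*+ over conventional CD4 cells it was 5 with 2 UMIs for gate genes and 3 to 5 with a run left out (5 without run 1). For *Trdc*+ over CD8 cells, 0 as reported, it was 1 with stricter cells, 1 with a mean over cells, 2 with 2 UMIs for gate genes, 1 with thinning before gating, 1 without mixed cells, 1 with the stricter CD8 gate, and 0 to 3 with a run left out. The causes were not tested. Leaving out barcode runs 2 and 3 together, chosen after their low CD4 values were seen, left 3 members past 2-fold in *Foxp3*+ over conventional CD4 cells and 4 in conventional CD4 over CD8 cells. Without the filter on gene level, every gene with at least 1 UMI in either class was counted. With 1 UMI added to each sum, genes with few UMIs tend to be called higher in the class with fewer total UMIs. The unfiltered share is therefore not a count of genes that differ. The share of genes 2-fold higher without the filter was larger in all 7 comparisons. It was 56.4% in place of 10.6% for *Trdc*+ over CD8 cells, 38.4% in place of 8.54% for conventional CD4 over CD8 cells, 26.0% in place of 8.99% for Pdcd1+Tcf7-Havcr2+ over Pdcd1-Tcf7+Havcr2- cells, 25.5% in place of 12.0% for migratory over conventional DC, 23.8% in place of 5.33% for *Foxp3*+ over conventional CD4 cells, 10.2% in place of 1.52% for Pdcd1+Tcf7+Havcr2- over Pdcd1-Tcf7+Havcr2- cells and 3.16% in place of 1.62% for Pdcd1+Tcf7+Havcr2- over Pdcd1+Tcf7-Havcr2+ cells, where the share 2-fold lower was 17.5% in place of 6.65%.

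Thinning before gating moved the *Tnfrsf4* ratio by over 1.5 times in 6 of 7 comparisons. It left 123 Pdcd1+Tcf7-Havcr2+ and 1058 Pdcd1-Tcf7+Havcr2- cells, and the ratio of Pdcd1+Tcf7+Havcr2- over Pdcd1+Tcf7-Havcr2+ cells became 1.5 in place of 0.675. Depth limits *Cd226* and *Tnfrsf4* in small classes, detection of *Tcf7* or *Havcr2* in 1 cell, and every value of *Trdc*+ cells.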

Other observations

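*Cd226* and *Cd2* also had transcripts in the macrophage-gated CD11c-selected cells, and these were uneven among them. The 6570 cells were split, after the values had been seen and with no test, by detection of each of 6 genes, among them *F10*, which encodes coagulation factor X, and *Ccr2*, a chemokine receptor of monocytes. In 825 cells with *F10* (median 18037 UMIs) *Cd226* was at 39.1 CPM, with barcode runs from 25.0 to 58.1, and in 5745 cells without it (median 8495 UMIs) at 3.85, with runs from 2.88 to 6.61. *Cd2* was at 38.4 CPM with *F10* (runs 23.9 to 64.6) and at 4.08 without (runs 2.08 to 11.7). The runs of cells with and without *F10* did not overlap for either gene. After thinning to 2000 UMIs, 5.48% of cells with *F10* and 0.585% of those without had a *Cd226* UMI, and 7.19% and 0.546% a *Cd2* UMI. *Trac*, which the gate did not use, had 3 UMIs with *F10* and 10 without, whereas cells with a *Cd3* UMI had been left out by the gate.

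The split by *Ccr2* gave 24.2 CPM of *Cd226* in 2716 cells with it and 0.491 in 3854 without, and 23.0 and 1.62 of *Cd2*. With *Retnla* (1244 cells) *Cd226* was at 36.6 CPM and *Cd2* at 38.2, against 2.95 and 2.40 in the rest, and with *Lyz1* (783 cells) at 27.9 and 35.7 against 7.85 and 5.96. The other 2 genes went the opposite way, with *Cd226* at 7.04 CPM and *Cd2* at 10.0 in 3019 cells with *Pf4* against 17.6 and 14.1 without, and at 5.32 and 6.98 in 3862 cells with *Trem2* against 26.8 and 23.1 without. *Tnfrsf9* was at 3.52 CPM with *Ccr2* (runs 2.14 to 5.96) and at 11.5 without (runs 0.0 to 17.9), lower with it in 4 of 6 runs. These splits share cells, and which cells carry the transcripts was not tested.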
